A study of Rattus norvegicus and Mus musculus with 3 samples.

Results

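The 10 genes described here mark the granule cells of the dentate gyrus and the young neurons that join them. They were taken by symbol, ignoring case, from the gene column of every table, and all 10 were found among the 30438 genes of each rat table and the 34714 of the mouse table. Mature granule cell genes were Prox1, C1ql2, C1ql3, Calb1, Dsp and Dock10, and immature neuron genes were Neurod1, Neurod2, Dcx and Sox11. Hippocampal RNA of 3 libraries was used: a 2VO rat of 3 to 4 months, a Sham rat of the same age span and, as the wild type of the 3xTg-AD line, a mouse of 6 months. Both rats are labelled wild type in genotype. In this field 2VO usually means that the common carotid arteries are tied off on both sides, a way to model chronic cerebral hypoperfusion, and Sham an operation that leaves the arteries open. The transgenic mice of the 3xTg-AD line are not part of this comparison. The mouse differs from the rats in age as well as species, and the labels do not say whether a library pooled animals.

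Granule cells are the principal neurons of the dentate gyrus. They receive entorhinal input and send mossy fibre axons to CA3 and to the hilus. In rodents new granule cells arise throughout life from stem cells of the subgranular zone, pass through dividing progenitors and a Dcx-positive immature stage, and acquire calbindin as they mature. Lowered blood flow and ischaemia are known to alter this turnover in rodents.

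Values are in the deposited units, whose normalization the labels and headers leave unstated, so levels are compared within a gene. Levels of several genes enter together only in the sums of marker lists and in the search for genes of like level. Each group holds 1 library. No difference below has a replicate check, no test was run, and how far apart 2 animals of 1 group would lie is unknown. Ratios of 2VO to Sham are log2 ratios with 1 unit added to both values, and a gene counts as measured when its mean over both rats was at least 1 unit. By that limit 8 of the 10 members were measured. Dcx, at a mean of 2.32 units, was the lowest inside it, and Dsp, at 0.968, and Sox11, at 0.566, fell outside it. In whole tissue, fewer cells of a type and less RNA per cell cannot be told apart.

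None of the 8 measured members differed by 1.5-fold or more between the 2VO and Sham libraries. Among all 13550 measured genes 336 did so, or 2.48%, so a count of 0 among 8 is near the background. Of the 8, 4 were higher and 4 lower in 2VO, and 58.7% of all measured genes were higher, the share against which the direction counts below are to be read. Under upper-quartile scaling that share was 50.6%, and 3 members were higher and 5 lower. Calb1, at a log2 ratio of 0.44, stood furthest above 0 and Neurod2, at -0.41, furthest below. The median was -0.013 for the 5 measured mature granule cell genes and 0.0039 for the 3 measured immature neuron genes, beside 0.04 for all measured genes. Of the 336 genes past 1.5-fold, 205 were higher in 2VO, 1.51% of those measured, and 131 lower, 0.967%. Scaling both libraries to equal upper quartiles made this 168 and 155.

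**Figure D1:**
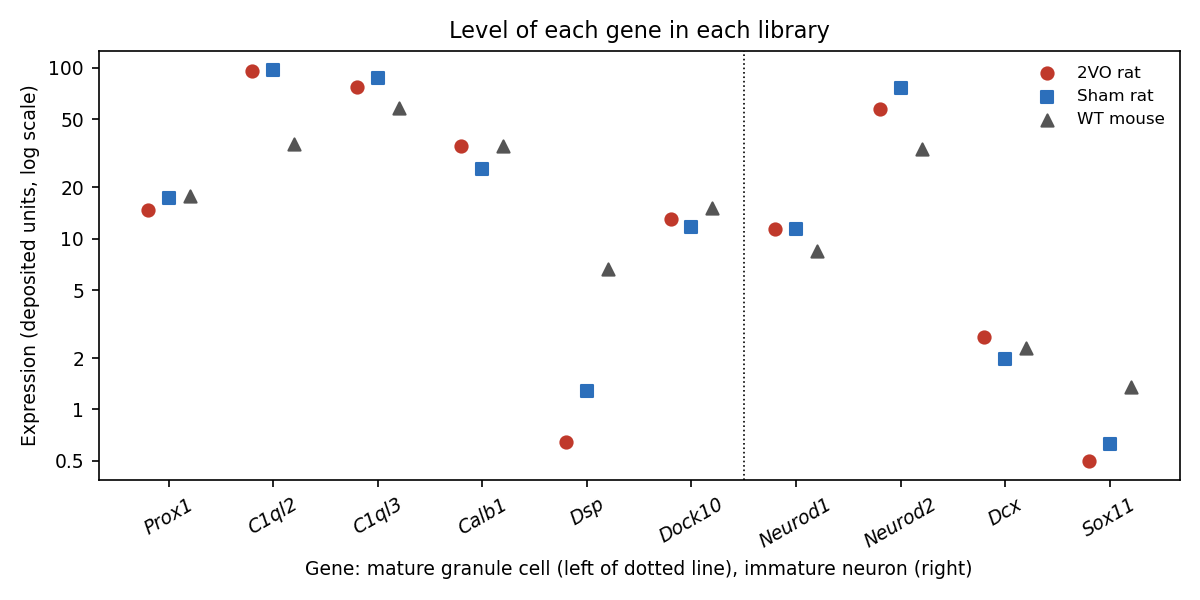
Level of each of the 10 members in the 2VO rat, Sham rat and WT mouse libraries, on a log axis of deposited units, 1 point per library. The rat points lie close together for most genes, while C1ql2 and Neurod2 are lower and Dsp is higher in the mouse than in both rats. The mouse is also lower than both rats for C1ql3 and Neurod1 and higher for Prox1, Dock10 and Sox11.

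Prox1 encodes a homeobox transcription factor that sets and keeps granule cell identity. It stood at 14.8 units in the 2VO library, 17.2 in the Sham library and 17.8 in the mouse. Its log2 ratio of 2VO to Sham was -0.21, a level 14.2% lower in 2VO, and 10.1% of measured genes lay as low or lower. The mouse and Sham levels were the closest pair and 2VO the lowest of the 3.

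C1ql2 and C1ql3 encode secreted proteins with a C1q domain. In mouse, granule cells release them at mossy fibre synapses, where they bind kainate receptors on the CA3 side and neurexin 3 on the mossy fibre side. C1ql2 was nearly level between the rats, at 95.8 units in 2VO and 96.6 in Sham, against 36.0 in the mouse. Its log2 ratio of 2VO to Sham was -0.013. C1ql3 was 76.9 units in 2VO, 87.3 in Sham and 58.0 in the mouse, with a log2 ratio of -0.18. The difference between the log2 ratios of C1ql3 and C1ql2 was -0.17. For both genes the mouse was the lowest library.

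Of their known binding partners, all 4 genes of the list, Adgrb3, Nrxn3, Grik2 and Grik4, were higher in 2VO, as were 58.7% of all measured genes. None passed 1.5-fold, and the median log2 ratio was 0.25, or 0.21 under upper-quartile scaling. Grik4, a kainate receptor subunit, was 22.8 units in 2VO and 17.9 in Sham. Nrxn3, which encodes neurexin 3, was 28.1 and 24.4 units in 2VO and Sham. These genes are used by many neurons beside CA3 pyramidal cells. Pan-neuronal markers, by comparison, were higher in 2VO for 5 of 6, with a median of 0.23.

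Calb1 encodes calbindin, a calcium-binding protein that granule cells gain as they mature. CA1 pyramidal cells and some interneurons make it too. It was 35.0 units in the 2VO library, 25.6 in Sham and 35.0 in the mouse, so the Sham library was the low one and the 2VO and mouse libraries were level. The plain ratio of 2VO to Sham was 1.37, and 3.51% of measured genes had a log2 ratio as high or higher. Beside it, interneuron markers were higher in 2VO for 7 of 10, summing to 478 units in 2VO and 454 in Sham with no marker listed at 0. CA1 markers were lower for 3 of 4, summing to 219 units in 2VO and 297 in Sham, again with none listed at 0. The part of either cell type in the Calb1 difference was not tested.

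Dock10, a guanine nucleotide exchange factor for small GTPases, was 13.0 units in 2VO, 11.8 in Sham and 15.1 in the mouse. Its log2 ratio of 2VO to Sham was 0.13, and 30.8% of measured genes lay as high or higher. Dsp encodes desmoplakin, which ties intermediate filaments to desmosomes and which marks granule cells in mouse hippocampus. It was 0.649 units in 2VO and 1.29 in Sham, against 6.65 in the mouse. Its mean over the rats was below 1 unit, so the plain ratio of 0.504 between the rats rests on low values. Desmoplakin is also made by epithelial and meningeal cells. Meningeal fibroblast markers summed to 11.4 units in 2VO, 9.003 in Sham and 28.3 in the mouse, and choroid plexus markers to 6.76, 1.36 and 22.7, with no marker of either list at 0 in a rat. In 2VO and the mouse, single genes carried most of these sums. Dcn, the decorin gene of the meningeal list, was 6.51 units in 2VO, 4.23 in Sham and 21.6 in the mouse. Ttr, the transthyretin gene of the choroid plexus list, was 4.75, 0.434 and 15.4. Not every marker was highest in the mouse. The choroid plexus marker Folr1, picked out once its values were known, was 1.54 units in 2VO, 0.798 in Sham and 0.467 in the mouse. The part of those tissues in the Dsp levels was not tested.

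The immature neuron genes did not move together. Neurod1 encodes a basic helix-loop-helix transcription factor that newborn granule cells need to survive and mature in mouse. It was 11.4 units in both 2VO and Sham and 8.44 in the mouse, with a log2 ratio of 2VO to Sham of 0.0039. Neurod2, a related factor that mature excitatory neurons of hippocampus and cortex also keep, was 57.1 units in 2VO and 76.3 in Sham, against 33.7 in the mouse. Its level was 25.2% lower in 2VO than in Sham, and 2.53% of measured genes had a log2 ratio as low or lower. The log2 ratio of Neurod2 lay below that of Neurod1 by a difference of -0.42.

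Dcx encodes doublecortin, a microtubule-associated protein of migrating and young neurons. It was 2.66 units in 2VO, 1.99 in Sham and 2.30 in the mouse, the mouse lying between the rats. Its log2 ratio was 0.29, and 10.2% of measured genes lay as high or higher. With 4 units added in place of 1 the log2 ratio was 0.15. Sox11, a transcription factor of the same stage, was 0.501 units in 2VO and 0.631 in Sham, both under the limit for measured genes, and 1.35 in the mouse. Because the 3 measured genes of this stage stood at about 0, at -0.41 and at 0.29, their median has no settled sign: it was 0.15 without Neurod2 and -0.20 over the 2 genes that average 5 units or more.

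**Figure D2:**
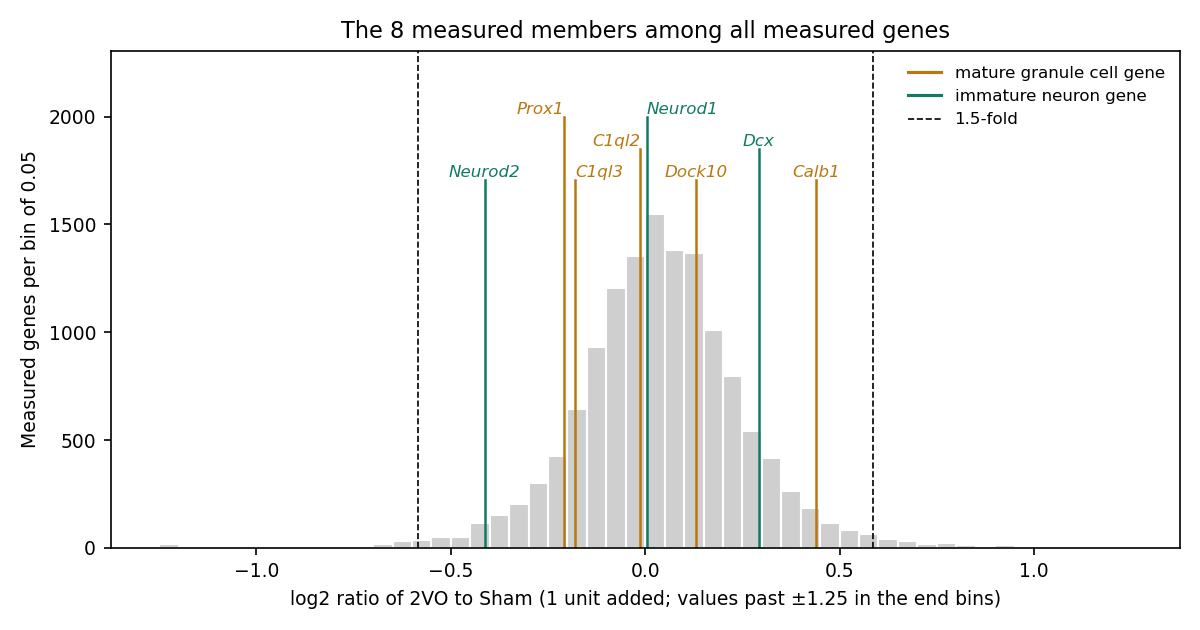
Histogram of the log2 ratio of 2VO to Sham over the 13550 measured genes, with the 8 measured members drawn as lines coloured by stage and dashed lines at 1.5-fold. Every member line lies inside the dashed lines, with Neurod2 leftmost at -0.41 and Calb1 rightmost at 0.44.

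The regulatory sequence before Neurod1 and Neurod2 is shown because these related factors differed more from each other than the C1ql pair, and because both proteins bind E-boxes, the sequence CANNTG. The 250 bases before each annotated start were taken from the RefSeq promoter table of the build GRCr8, in which 8 of the 10 members were matched by symbol, all but Prox1 and Calb1. Capitals mark every CANNTG, which reads as the same class on both strands. The Neurod1 sequence lies at chr3:84770455-84770704 and the Neurod2 sequence at chr10:83824278-83824527, both on the minus strand and printed 5′ to 3′.
Neurod1: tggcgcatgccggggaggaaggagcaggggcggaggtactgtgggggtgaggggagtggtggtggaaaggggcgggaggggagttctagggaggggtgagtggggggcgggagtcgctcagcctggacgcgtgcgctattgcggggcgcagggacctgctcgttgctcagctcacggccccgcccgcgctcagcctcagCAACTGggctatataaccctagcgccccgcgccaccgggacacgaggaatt
Neurod2: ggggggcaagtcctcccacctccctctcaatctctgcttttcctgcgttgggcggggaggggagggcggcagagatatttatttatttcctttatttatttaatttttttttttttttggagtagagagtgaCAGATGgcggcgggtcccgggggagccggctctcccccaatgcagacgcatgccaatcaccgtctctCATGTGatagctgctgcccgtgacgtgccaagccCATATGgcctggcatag

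The Neurod1 window held 1 E-box and the Neurod2 window 3, at GC contents of 69.2% and 54.0%. Over the 8 members found, 6 windows held at least 1 CANNTG, beside 65.5% of all 33469 windows of this length in the table. CAGATG or its reverse complement CATCTG, a form of CANNTG that NeuroD factors are known to favour, was present in 1 of the 8, that of Neurod2, and in 14.0% of all windows. Both shares among members are thus near those of promoters at large.

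Across lists ordered by stage, other genes of the lineage showed no common direction between the rats, although the further granule cell genes were mostly lower in 2VO. Neural stem cell genes, most of which astrocytes share, were higher in 2VO for 3 of 8 measured and lower for 5, with a median log2 ratio of -0.13. Only 2 of 6 intermediate progenitor genes were measured. Neurog2, a proneural factor, was 1.33 units in 2VO and 0.867 in Sham, and Insm1, a zinc finger factor of neural progenitors, was 2.67 and 3.61, so they went opposite ways.

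Of 11 proliferation genes 6 were measured, 3 higher and 3 lower in 2VO with a median of 0.018, which was -0.013 under upper-quartile scaling. Aurkb, a mitotic kinase, stood apart at 3.57 units in 2VO and 1.039 in Sham, the only proliferation gene past 1.5-fold. Ccnd2, which encodes a cyclin of the G1 phase and is also used outside dividing cells, was 27.4 units in 2VO and 18.5 in Sham, and Pcna, a replication clamp, was 18.4 and 16.9. Mki67, which encodes the antigen Ki-67 and is named here because it is widely used, was 1.17 units in 2VO and 1.31 in Sham. The mitotic genes Top2a and Cdk1, picked out once their values were known, were under 1 unit in both rats, at 0.157 and 0.136 units in 2VO and 0.176 and 0.3004 in Sham. Ccnb1, another mitotic gene picked out in the same way, was also under 1 unit in both rats, at 0.520 in 2VO and 0.417 in Sham. Birc5, a measured mitotic gene likewise picked out, was 0.921 units in 2VO and 1.32 in Sham. Mitotic genes, with Aurkb among those higher in 2VO, thus went both ways.

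Of the other immature neuron genes 9 were measured, and 7 of these stood higher in 2VO, with a median of 0.16. Under upper-quartile scaling 5 of 9 were higher, with a median of 0.12. Calb2 encodes calretinin, which newborn granule cells express for a short time and which interneurons and, in mouse, hilar mossy cells carry as well. It was the 1 gene of this list past 1.5-fold, at 6.29 units in 2VO and 3.44 in Sham, against 22.2 in the mouse. Granule lineage transcription factors had 13 measured members, 7 higher and 6 lower in 2VO, with a median of 0.029 and none past 1.5-fold. Under upper-quartile scaling 6 were higher and 7 lower. Bcl11b, which encodes the zinc finger factor CTIP2 of granule cells and CA1 pyramidal cells, was 30.3 units in 2VO and 45.1 in Sham.

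**Figure D3:**
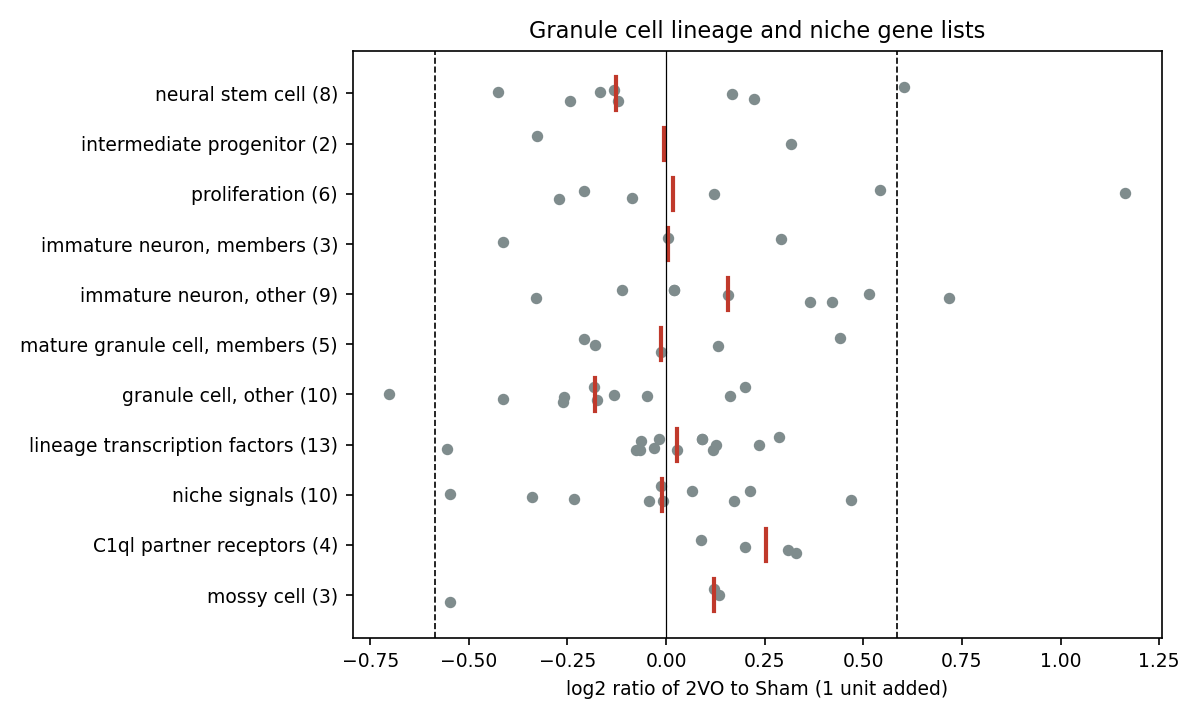
Log2 ratio of 2VO to Sham for each measured gene of the members and of 9 lists of lineage stage, niche or partner cells, with the number measured in brackets, a red bar at the list median and dashed lines at 1.5-fold. Aurkb at 1.16 and Calb2 at 0.72 lie past the upper line, and Plk5 at -0.70 past the lower.

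Further granule cell genes were lower in 2VO for 8 of 10 measured, with a median of -0.18, whereas the 5 measured mature members were divided 2 higher and 3 lower. Plk5, a polo-like kinase of neurons, was the 1 gene past 1.5-fold, at 23.8 units in 2VO and 39.3 in Sham, against 8.17 in the mouse. Synpr, which encodes the vesicle protein synaptoporin of mossy fibres, was 39.2 units in 2VO and 47.1 in Sham, and was picked out once its values were known. Stxbp6, picked out in the same way, was 24.8 units in 2VO and 33.4 in Sham.

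Signals of the niche were divided, with 4 of 10 measured genes higher and 6 lower in 2VO, a median of -0.0097 and none past 1.5-fold. Frzb, which encodes the secreted Wnt inhibitor sFRP3 that holds back granule cell production in mouse, was 10.4 units in 2VO and 15.7 in Sham. Vegfa, the angiogenic factor that also promotes neurogenesis, was 27.6 units in 2VO and 27.8 in Sham. Of mossy cell genes 3 of 5 were measured. Nmb, a neuropeptide gene, was 6.75 units in 2VO and 10.3 in Sham, and Calcrl, a receptor gene, was 2.05 and 1.81.

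Set against the mouse library, 2 members lay at least 2-fold away in both rats. Over 11457 symbols shared by the tables and averaging 1 unit or more in the 3 libraries, 14% lay that far from the mouse in the same direction in both rats, 9.54% higher and 4.48% lower. Of the 9 members in that set C1ql2 was higher in both rats, at log2 ratios to the mouse of 1.39 in 2VO and 1.40 in Sham. Dsp was lower, at -2.21 in 2VO and -1.74 in Sham. Neurod2 stood at 0.75 in 2VO and, past 2-fold, at 1.16 in Sham; taken singly, 16.3% of these symbols were 2-fold or more from the mouse in 2VO and 17.7% in Sham. Over all these symbols the median log2 ratio to the mouse was 0.18 for 2VO and 0.13 for Sham, so single ratios are to be read against that offset.

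By order of levels, the mouse was the highest library for 4 members, Prox1, Dsp, Dock10 and Sox11, and the lowest for 4, C1ql2, C1ql3, Neurod1 and Neurod2. For Calb1 and Dcx it lay between the rats, with 2VO above it and Sham below. The 2VO library was the highest for 3 members and the lowest for 3, and so was the Sham library. Without replicates it cannot be said which neighbours in these orders differ beyond the spread between animals.

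Among the further granule cell genes, several that mark these cells in mouse were listed near 0 in the rats, and they were picked out once their values were known. Lct, which encodes lactase, was 0.013 units in 2VO and 0.010 in Sham, against 7.03 in the mouse. Tdo2, which encodes a tryptophan dioxygenase, was listed at 0 in 2VO and at 0.012 in Sham, against 2.87 in the mouse. Npnt, an extracellular matrix gene, was 0.629 and 0.293 units in 2VO and Sham, against 5.76 in the mouse. Dsp, too, was lower in both rats than in the mouse, though at 1.29 units in Sham it was not near 0. Plk5 and C1ql2 were higher in both rats than in the mouse. How well each species' annotation covers these genes was not tested.

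**Figure D4:**
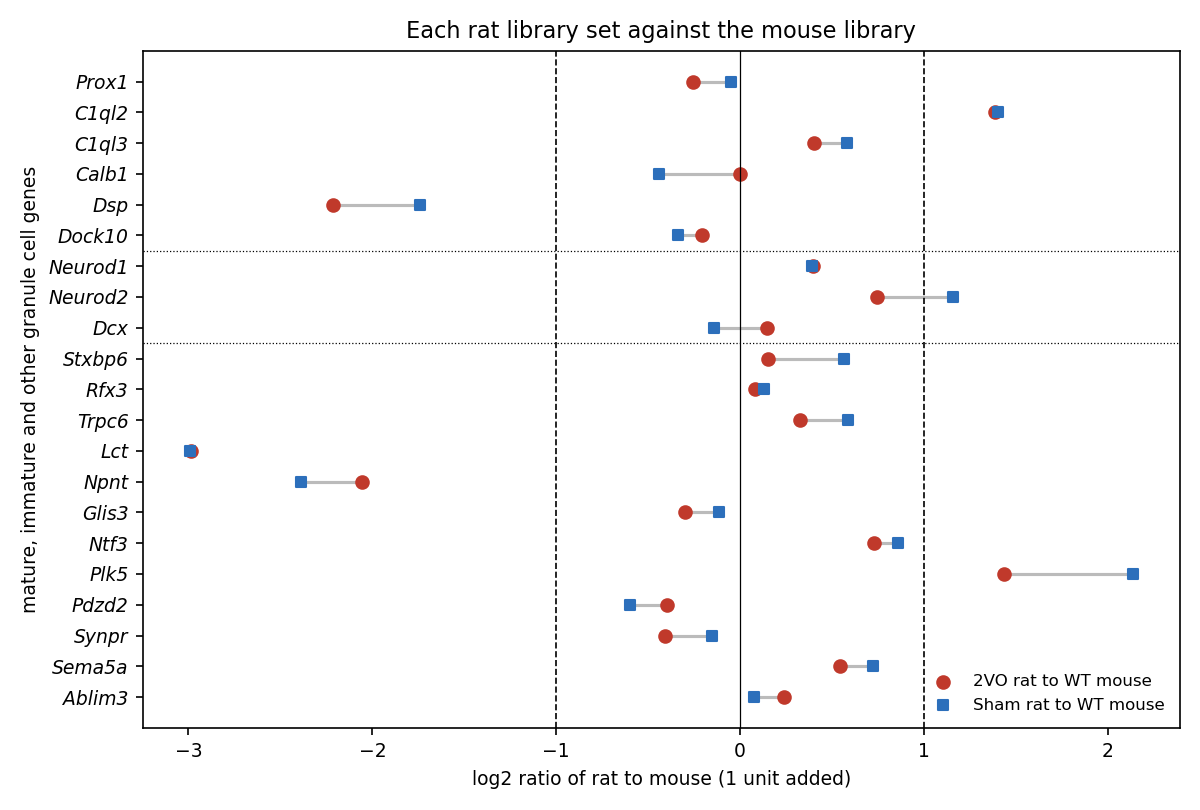
Log2 ratio of each rat library to the mouse library, with 1 unit added, for the 9 members and 12 further granule cell genes measured over the 3 libraries, with dashed lines at 2-fold. Dsp, Lct and Npnt lie left of the lower line in both rats, and C1ql2 and Plk5 right of the upper line.

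The genes closest in level to Calb1 over the 3 libraries, by the Euclidean distance of log2 values with 1 unit added among 16251 shared symbols, were R3hdm2 at a distance of 0.058, Neto1 at 0.12 and Rcan2 at 0.13. Neto1, an auxiliary subunit of kainate receptors, was 33.3 units in 2VO, 25.01 in Sham and 32.7 in the mouse. Those nearest to Neurod2 were Pfdn6 at a distance of 0.16, Dact3 at 0.17 and Rprml at 0.20. Rprml was 60.7 units in 2VO, 78.4 in Sham and 38.2 in the mouse. With 3 libraries such likeness is a description of levels.

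Markers of other cells and regions differed between the same 2 rats, and their part in the member levels was not tested. Cortical neuron markers were higher in 2VO for 5 of 6, summing to 63.7 units in 2VO and 40.9 in Sham. Of these Lamp5 was 27.3 units in 2VO and 12.2 in Sham, and Fezf2 was 12.7 and 6.62. CA2 and CA3 markers were divided, 4 of 7 measured being higher in 2VO, or 3 of 7 under upper-quartile scaling, and summed to 161 units in 2VO and 186 in Sham, with Iyd listed at 0 in 2VO. CA1 markers were lower in 2VO for 3 of the 4 measured, and of these Wfs1 was 111 units in 2VO and 169 in Sham. Oligodendrocyte markers were higher in 2VO in 10 of 10, with a median log2 ratio of 0.33, and microglia markers lower in 7 of 8, with a median of -0.41. Ependymal markers, of cells that line the ventricle, were higher in 5 of 6, with a median of 0.51, and 2 of them passed 1.5-fold. Astrocyte markers were divided, 4 of 7 being higher in 2VO with a median log2 ratio of 0.012. Under upper-quartile scaling 2 of 7 were higher. Gfap, which neural stem cells also express, was the only marker of that list past 1.5-fold, at 360.0 units in 2VO and 778 in Sham. Neurod2 and Bcl11b, both lower in 2VO, are made by pyramidal as well as granule cells. Calb1, which CA1 pyramidal cells also make, was higher in 2VO. The part of pyramidal cells in these levels was not tested.

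**Figure D5:**
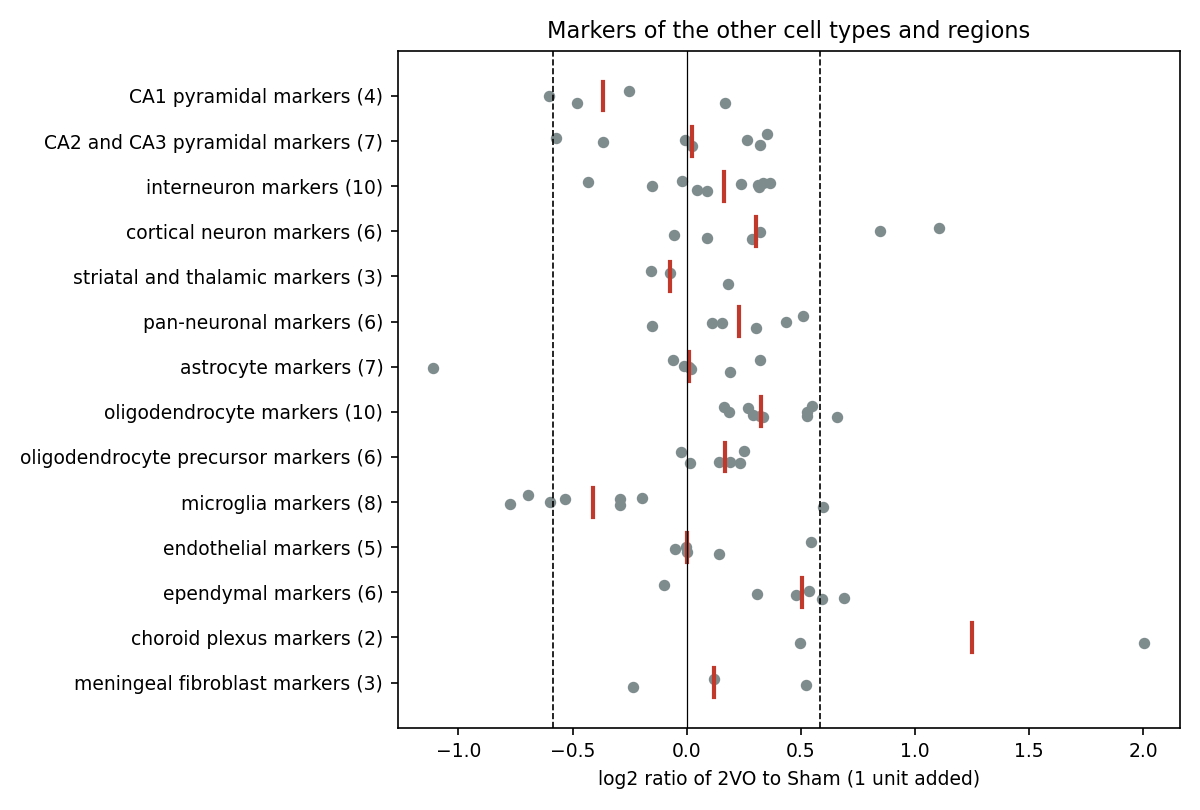
Log2 ratio of 2VO to Sham for each measured marker of 14 other cell types and regions, with the number measured in brackets, a red bar at the list median and dashed lines at 1.5-fold. Oligodendrocyte markers all lie right of 0 and 7 of 8 microglia markers left of it.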

How the data were processed

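RNA from hippocampus was extracted with TRIzol and sequenced from TruSeq (v2 kit) libraries, according to the labels' protocols. The deposited tables hold 1 column of normalized expression signal per gene, made by the authors in a unit not given in the sources used here; values summed to 333941 in the 2VO rat, 325636 in the Sham rat and 268889 in the mouse. The submitters' processing notes name fastp 0.21.0, HISAT2 2.1.0, DESeq2, GRCm39 and mRatBN7.2, without roles. Over 2461 genes above 0 and under 0.1 units in both rats, no ratio between the libraries, to 3 decimals, was shared by more than 7 genes, so no step worth 1 read was found. Depth is therefore unknown, and no interval or floor is given.

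Groups came from the titles. Values were used as deposited, with 1 unit added before the log2 and a minimum mean of 1 unit. Members and lists were chosen with earlier results of these data known. All members were named. Of each lineage list, genes past 1.5-fold or else the 2 with the highest mean over the rats were named. Ccnd2 and Pcna, the proliferation genes with the highest means, were named beside Aurkb, and Mki67 for its wide use. Any others of these lists were said to be picked out later. Of the other marker lists a few were named, some of them past that fold. Some genes that this rule takes are left out of the text. Nearest genes were sought for the measured members with the highest and lowest ratio. Alternatives changed the added value, filter, scaling, centring and membership. The calculation was tested on simulated data. Python 3.11.15, numpy 2.4.6, pandas 2.3.3, statsmodels 0.14.6 and matplotlib 3.10.9 were used.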

Additional observations from a re-analysis of the deposited data

How the results depend on the processing

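Under the 8 alternatives run on the 8 measured members (0.25 or 4 units added, the filter dropped or raised to 5 units, 3 scalings, and centring on a lowess trend with span 0.3; Dcx has no value where the filter is 5 units), 7 of the 8 measured members kept the sign of their log2 ratio. The exception was Neurod1, which ranged from -0.037 to 0.0042. None of the measured members passed 1.5-fold in any of these settings. The median of the mature granule cell genes moved by less than 0.1 in each, also without Prox1. That of the immature neuron genes was -0.20 with a mean of at least 5 units, which leaves out Dcx, and 0.15 without Neurod2. The number of genes at least 1.5-fold apart over the whole table was 557 with 0.25 units added, 120 with 4 units added and 156 with a mean of at least 5 units. Direction counts of the lists under the scalings were added after the data were seen. No paired analysis was possible because each group holds 1 library, and for the same reason no replicate could be left out.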
